A study of Mus musculus with 9 samples.

Results

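The 7 genes mt-Nd1, mt-Nd2, mt-Nd3, mt-Nd4, mt-Nd4l, mt-Nd5 and mt-Nd6 encode the subunits of respiratory complex I that are made inside mitochondria. They were taken by name, as a family chosen with earlier results of these data known, and were 7 of the 32427 genes counted in single-cell RNA libraries from the kidneys of 9 mice. All animals were male C57BL/6 mice, 6 weeks old on arrival, and kidneys were taken at week 8. The 3 Control mice received saline. The 3 AKI-CKD mice received 4 weekly intraperitoneal injections of cisplatin at 8 mg/kg, a platinum drug that injures the proximal tubule and models acute kidney injury passing into chronic kidney disease. The 3 AKI-CKD + EGT mice received the same cisplatin and also ergothioneine, a thiol antioxidant taken up from the diet, at 0.5 mg/mL in drinking water. AKI-CKD against Control asks what repeated cisplatin did to these messages, and AKI-CKD + EGT against AKI-CKD asks what ergothioneine did on top of it. No group received ergothioneine alone, and each library stood for 1 mouse, so the spread given is that between these animals.

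Complex I passes electrons from NADH to ubiquinone and pumps protons across the inner mitochondrial membrane. Its membrane arm is built around these 7 proteins, while its remaining subunits are encoded in the nucleus. ND1 sits where ubiquinone enters, ND2, ND4 and ND5 are the antiporter-like proton-pumping subunits, and ND3, ND4L and ND6 are small proteins that lie between them. Kidney tubules are among the tissues richest in mitochondria. Mitochondrial DNA is copied as long transcripts from each strand that are then cut into messages, and 6 of the 7 genes lie on one strand while mt-Nd6 lies alone on the other. Droplet libraries catch RNA by its poly(A) tail, and the ND6 message of human cells has been described as carrying little or no such tail.

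In the gene order of the 13 mitochondrial protein genes (GENCODE M21), mt-Nd1 and mt-Nd2 were positions 1 and 2, mt-Nd3 was 8, mt-Nd4l was 9, mt-Nd4 was 10, mt-Nd5 was 11 and mt-Nd6 was 12. The ends of 2 neighbouring pairs are shown because they overlap, so that a read there can belong to either gene. The bases shared by the 3′ ends of mt-Nd5 and mt-Nd6 are in capitals. They number 14, and each run is the reverse complement of the other because the genes face opposite ways.
mt-Nd5, last 30 bases: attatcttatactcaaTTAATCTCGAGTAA
mt-Nd6, last 30 bases: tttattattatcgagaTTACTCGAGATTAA
The end of mt-Nd4l and the start of mt-Nd4 share 7 bases on the same strand, again in capitals.
mt-Nd4l, last 30 bases: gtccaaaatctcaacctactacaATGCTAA
mt-Nd4, first 30 bases: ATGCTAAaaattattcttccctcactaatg
Base composition set mt-Nd6 apart from the others. It held 28.1% G and 5.97% C, against 8.00% to 11.6% G and 22.1% to 29.97% C in the other members, and its longest run of A was 3 bases against 4 to 8. Whether reads were counted by strand is not given in the sources used here, so reads over the mt-Nd5 and mt-Nd6 overlap cannot be told apart. Each strand is copied as a long transcript, so without strand a read from the other strand elsewhere in mt-Nd6 could also be counted for mt-Nd6. The 8 other annotated genes that share 31-base words with a member, among them Gm10222 for mt-Nd4l and Gm28438 for mt-Nd3, were not rows of the files.

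Of 216680 barcodes, 215077 had at least 1000 unique molecular identifiers (UMIs) and 500 genes, and 196925 of these also had at most 15% of their UMIs from mitochondrially encoded genes and were kept. The study's methods give a lower number of retained cells for these limits. The share of cells over the 15% limit differed widely between mice. It was 17.0%, 4.41% and 0.909% in Control mice 1 to 3, 4.62%, 4.84% and 1.86% in AKI-CKD mice 1 to 3, and 5.21%, 7.94% and 27.7% in AKI-CKD + EGT mice 1 to 3. Each result is therefore given with this limit and, where it moved a call, without it. Median depth of kept cells was similar, at 2534 to 2966 UMIs per cell. Of 98290 barcode names, 62337 occurred in more than 1 library, since the names are serial numbers and do not identify shared cells. Clusters built without mitochondrial genes gave 14 types by their markers: proximal tubule (PT), loop of Henle (LOH), thin limb, distal convoluted tubule (DCT), connecting tubule (CNT), principal (CD-PC) and intercalated (CD-IC) cells of the collecting duct, podocytes, endothelial cells (Endo), myofibroblasts, macrophages, T, B and cycling cells. Each name means cells like that type by markers, and the names may differ from the study's own. PT cells numbered 8756 to 21566 per mouse, with the fewest in AKI-CKD + EGT mouse 3. Summed UMIs of the PT markers reached 18.2% to 89.1% of the PT level in the other types, and the part of that RNA in the members' levels outside PT was not tested.

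Per kilobase of gene, mt-Nd1 and mt-Nd4 were the most abundant members and mt-Nd4l the least. Plain CPM denotes UMIs of a gene scaled to a common total of all UMIs per mouse, with no further normalization. The median over the 9 mice was 3156 plain CPM per kilobase for mt-Nd1, 2324 for mt-Nd4, 1526 for mt-Nd2, 739 for mt-Nd3, 537 for mt-Nd5, 30.2 for mt-Nd6 and 15.3 for mt-Nd4l. Members of one complex thus differed in captured RNA per kilobase by more than 2 orders of magnitude. Of all UMIs of the 7 members in a mouse, mt-Nd1 took a median of 35.6%, mt-Nd4 33.7%, mt-Nd2 17.4%, mt-Nd5 11.7%, mt-Nd3 2.22%, mt-Nd6 0.173% and mt-Nd4l 0.0459%. A level from a 3′ or internal priming site depends on where the primer binds, so these are levels of captured RNA. Division by length also changes the order, since mt-Nd3 stood above mt-Nd5 per kilobase and below it in UMIs.

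**Figure D1:**
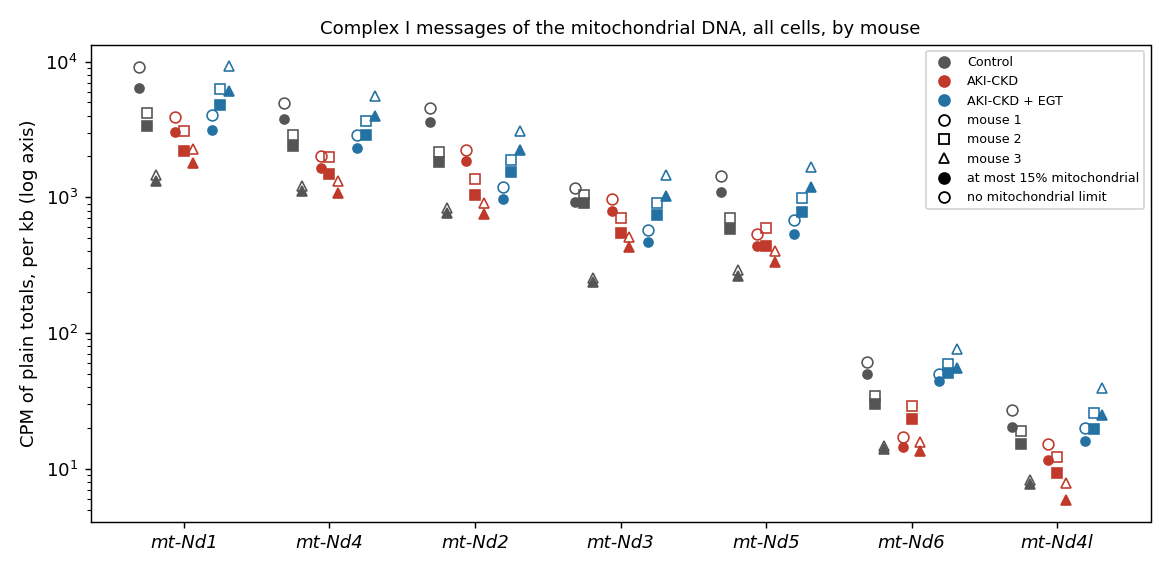
Level of each member in all cells, in plain CPM per kilobase on a log axis, with 1 point per mouse coloured by group, filled for cells within the 15% limit and open with no limit. The medians run from 3156 for mt-Nd1 to 15.3 for mt-Nd4l, and each member spans several fold between mice of one group.

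Detection in single cells followed the level. The share of kept cells with a UMI of mt-Nd4 was 89.7% in the lowest mouse, 98.9% at the median and 99.9% in the highest, and for mt-Nd1 it was 86.8%, 98.7% and 99.9%. mt-Nd3 was seen in 21.7%, 51.1% and 61.8% of cells. mt-Nd6 was seen in 2.59%, 5.28% and 9.88%, and in 0.836%, 1.81% and 3.38% after each cell was thinned to 1000 UMIs. mt-Nd4l was seen in 0.695%, 1.55% and 2.66% of cells and rested on 165 to 491 UMIs per mouse. The counts of mt-Nd6 and mt-Nd4l are therefore read only as sums over cells.

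The members moved together from mouse to mouse, and for their sum the Control mice alone spanned the range of all 9. By member this held for mt-Nd1. AKI-CKD + EGT mouse 3 was highest for mt-Nd3, mt-Nd4, mt-Nd4l, mt-Nd5 and mt-Nd6, and AKI-CKD mouse 3 was lowest for mt-Nd2, mt-Nd4, mt-Nd4l and mt-Nd6. The summed level was 17424, 9818 and 4168 plain CPM in Control mice 1 to 3. It was 8194.5, 6261 and 4752 in AKI-CKD mice 1 to 3, and 8396, 11844 and 16133 in AKI-CKD + EGT mice 1 to 3. The 3 AKI-CKD values lay inside the Control range, which Control mouse 1 bounded above and Control mouse 3 below, and AKI-CKD + EGT mouse 1 lay just above the highest AKI-CKD mouse. All 13 mitochondrial protein genes together took 6.08%, 3.98% and 1.55% of the UMIs of kept cells in Control, 3.03%, 2.57% and 1.94% in AKI-CKD, and 3.40%, 4.46% and 6.39% in the AKI-CKD + EGT group. The 7 members were a stable part of that, at 24.4% to 28.7% in every mouse. The mice with the highest members, Control mouse 1 and AKI-CKD + EGT mouse 3, were also those with most cells over the 15% limit, and Control mouse 3, the lowest, had the fewest. The part of this in the members' levels of kept cells was not tested. Across the 9 mice, Pearson's r of log2 levels between members ran from 0.49 for mt-Nd2 with mt-Nd6 and mt-Nd3 with mt-Nd6 to 0.97 for mt-Nd1 with mt-Nd5, mt-Nd4 with mt-Nd4l and mt-Nd4 with mt-Nd5. These points share a library and its total, so r is a description.

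mt-Nd6, the one member from the other strand, was a larger part of the members in AKI-CKD + EGT mice, but the groups were not separated by the test. Its UMIs were 0.148%, 0.160% and 0.173% of the members' UMIs in Control mice 1 to 3. In AKI-CKD mice they made up 0.0923%, 0.192% and 0.148%, and in AKI-CKD + EGT mice 0.273%, 0.224% and 0.179%. AKI-CKD mouse 1 was the lowest of the 9 and AKI-CKD + EGT mouse 1 the highest. AKI-CKD mouse 2 lay above AKI-CKD + EGT mouse 3, so these groups overlapped. These shares came from 657 to 2080 mt-Nd6 UMIs per mouse. The 95% Wilson interval, which covers counting error only and not differences between animals, was 0.0856% to 0.0994% in AKI-CKD mouse 1 and 0.259% to 0.287% in AKI-CKD + EGT mouse 1. These 2 mice, picked as the lowest and highest by this share, lay further apart than counting error.

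Group means of this share were 0.160% ± 0.0125 for Control, 0.144% ± 0.0501 for AKI-CKD and 0.225% ± 0.0467 for AKI-CKD + EGT (SD, n = 3). Over all ways to place 9 mice in 3 groups of 3, the exact permutation test gave p = 0.0786, or 0.157 adjusted over 4 populations. In PT cells the shares were 0.149%, 0.162% and 0.174% in Control, 0.0927%, 0.189% and 0.147% in AKI-CKD, and 0.268%, 0.230% and 0.183% in the AKI-CKD + EGT group, with exact p = 0.075 (adjusted 0.157). In LOH cells AKI-CKD mice had 0.0978%, 0.147% and 0.149% and AKI-CKD + EGT mice 0.296%, 0.184% and 0.179%. Here the AKI-CKD + EGT mice all lay above the AKI-CKD mice, by 0.0884 percentage points in the mean, which gives the smallest p that 3 against 3 mice allow in an exact two-sided permutation test, 0.1 (0.4 adjusted over 8 comparisons). This difference was 0.0503 points without AKI-CKD + EGT mouse 1 and 0.109 without AKI-CKD + EGT mouse 3. Control mice overlapped both groups in LOH, at 0.153%, 0.121% and 0.236%. In DCT cells the difference of means was 0.118 points (exact p = 0.2), and the 3-group exact permutation p was 0.179 in DCT and 0.232 in LOH. AKI-CKD against Control differed by -0.0164 points in all kept cells (exact p = 0.7), which was 0.0095 without AKI-CKD mouse 1. In LOH it differed by -0.0387 points (exact p = 0.4), which was -0.0633 without Control mouse 2 and -0.0057 without Control mouse 3. Without the mitochondrial limit the group means were 0.152%, 0.135% and 0.206%, and the 3-group exact permutation p was 0.107.

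**Figure D2:**
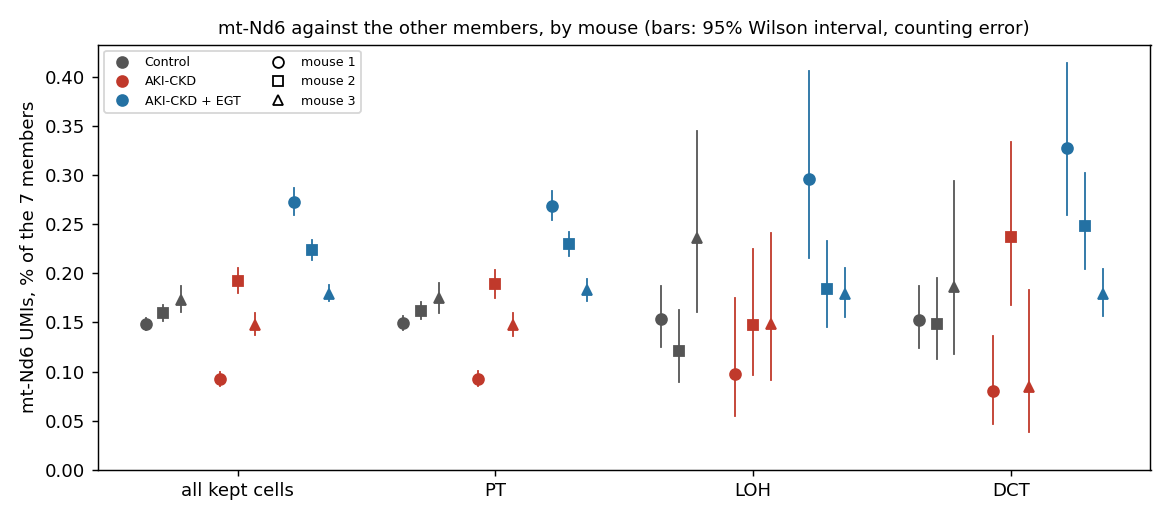
UMIs of mt-Nd6 as a percentage of the UMIs of all 7 members, for each mouse in all kept cells and in PT, LOH and DCT cells, with 95% Wilson intervals for counting error as bars. AKI-CKD + EGT mouse 1 is the highest mouse in all kept cells at 0.273% and AKI-CKD mouse 1 the lowest at 0.0923%, and in LOH cells the 3 AKI-CKD + EGT mice lie above the 3 AKI-CKD mice.

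Set against its overlapping neighbour, mt-Nd6 gave 12.9, 14.7 and 14.98 UMIs per 1000 UMIs of mt-Nd5 in Control mice 1 to 3, 9.46, 14.97 and 11.6 in the AKI-CKD mice, and 23.4, 18.5 and 13.4 in the AKI-CKD + EGT mice. AKI-CKD + EGT mouse 3 again lay among the other groups. The 2 highest mice and the lowest one were the same as when mt-Nd6 was set against all members.

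Balance also differed between members of the same strand. mt-Nd2, a proton-pumping subunit, was low relative to mt-Nd4, another such subunit, in each AKI-CKD + EGT mouse. Its UMIs were 72.2%, 57.2% and 52.1% of those of mt-Nd4 in Control mice 1 to 3, 83.9%, 52.7% and 52.8% in the AKI-CKD mice, and 31.3%, 39.7% and 42.7% in the AKI-CKD + EGT mice. The 3 AKI-CKD + EGT mice lay below all 6 others. They did so too in LOH cells, at 28.2%, 38.2% and 41.7% against 49.2% and more in the other mice, and in PT, DCT, Endo and macrophage cells, and in all 6 populations again without the mitochondrial limit, where the highest AKI-CKD + EGT mouse in all cells had 41.5% and the lowest other mouse 51.8%. mt-Nd3, a small subunit, was 6.22%, 9.57% and 5.37% of mt-Nd4 in Control mice, 12.2%, 9.14% and 10.1% in the AKI-CKD mice, and 5.10%, 6.44% and 6.58% in the AKI-CKD + EGT mice. Its AKI-CKD + EGT values lay below every AKI-CKD value but overlapped Control. In the ratios of mt-Nd1, mt-Nd4l, mt-Nd5 and mt-Nd6 to mt-Nd4, the AKI-CKD + EGT mice did not lie apart from all others in any of these populations. The populations come from the same mice and do not repeat the result independently. These ratios were chosen for description after values were seen, and no test was run on them. The share of all gene ratios that separate in this way is not given.

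**Figure D3:**
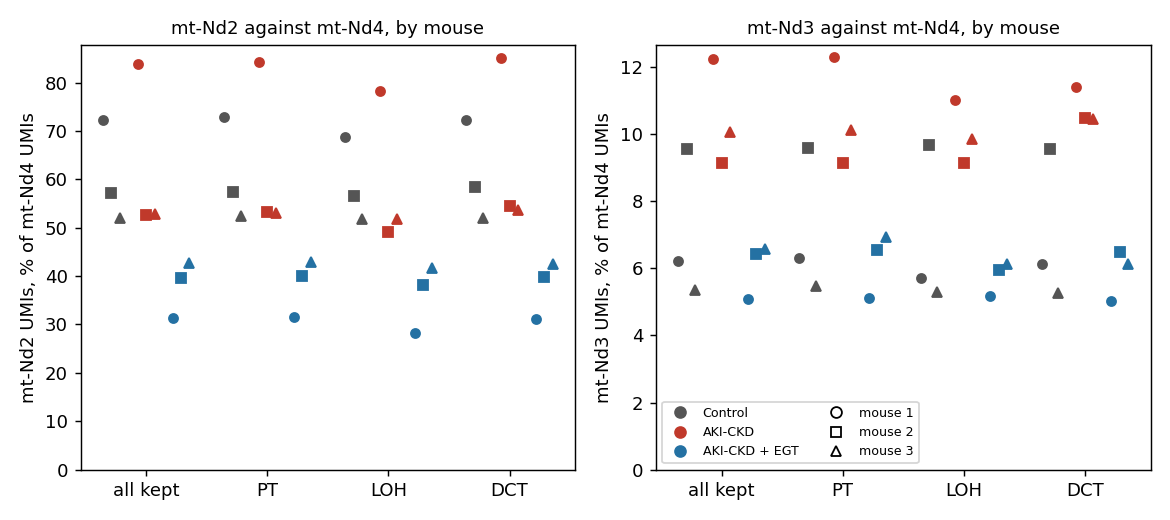
UMIs of mt-Nd2 and of mt-Nd3 as a percentage of mt-Nd4 UMIs, with 1 point per mouse, in all kept cells and in PT, LOH and DCT cells. In all kept cells the AKI-CKD + EGT mice have 31.3% to 42.7% for mt-Nd2 and the other 6 mice 52.1% to 83.9%, while for mt-Nd3 the AKI-CKD + EGT mice lie below AKI-CKD and overlap Control.

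Cell types differed less than mice did. Podocytes are left out of the orders of types, since only 16 came from Control mouse 3, the mouse with the lowest members, and their mean rested on the 8 other mice. From the highest to the lowest of the 13 types measured in all 9 mice, the geometric mean over mice changed 1.32-fold for mt-Nd3 to 1.53-fold for mt-Nd1, and 1.79-fold for the sparse mt-Nd4l. Without the mitochondrial limit it changed 1.44-fold for mt-Nd6 to 1.76-fold for mt-Nd1, and 1.79-fold for mt-Nd4l. Between the highest and lowest mouse, with the limit, the level changed 3.24-fold to 4.93-fold. Over the 8 types measured best, the SD of log2 levels was 0.12 to 0.25, against 0.68 to 0.86 over mice. LOH was highest for mt-Nd1, mt-Nd3 and mt-Nd5, Endo for mt-Nd2 and mt-Nd4, B cells for mt-Nd4l and myofibroblasts for mt-Nd6. Cycling cells were lowest for mt-Nd1, mt-Nd2, mt-Nd4 and mt-Nd5, thin limb for mt-Nd3, CD-IC for mt-Nd4l and CD-PC for mt-Nd6. Without the mitochondrial limit cycling cells were lowest for mt-Nd3. Levels by type include a prior of 0.5 UMI, so a mouse with no UMI of a sparse member stands higher in a small type. The ends of the order for mt-Nd4l and mt-Nd6 can therefore follow the size of the type.

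The order for mt-Nd1 began with LOH at 3758 plain CPM (range over mice 1627 to 8126) and CNT at 3712, passed DCT at 3388, Endo at 3174, B cells at 3167, macrophages at 3055, CD-IC at 3029.9, T cells at 2975, PT at 2893, myofibroblasts at 2730.1 and CD-PC at 2672, and ended with thin limb at 2649 and cycling cells at 2453. For mt-Nd6 the order spanned 1.36-fold, beside 1.32-fold for mt-Nd3 and 1.53-fold for mt-Nd1. Myofibroblasts had 18.1 plain CPM, CNT 18.1, T cells 17.95, LOH 17.8 and Endo 17.8, followed by DCT at 16.3, macrophages and thin limb at 15.5, B cells at 14.7, CD-IC at 14.3, PT at 14.2, cycling cells at 13.9 and CD-PC at 13.3. For mt-Nd5 LOH led at 1258, with PT at 979 and cycling cells at 828. Without the mitochondrial limit PT stood higher in the order for mt-Nd1. It had 3865 plain CPM there, above Endo at 3736, macrophages at 3697 and B cells at 3695. Of 91 pairs of neighbours, podocytes included over the 8 mice they share, 0 passed an exact sign-flip permutation test adjusted over the pairs. With 9 mice the smallest p that this test allows is 0.0039, and a single pair at that value would not pass over so many, so the count does not show whether neighbours differ. The top type depended on the clusters: over the same 13 types it stayed for 5 of 7 members without the mitochondrial limit, for 6 with totals that leave out mitochondrial genes, and for 4 with clusters made without batch integration, where 1 or more types rested on 8 mice.

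LOH cells carried more of the members than PT cells in every mouse. The summed level in LOH was 1.13 to 1.53 times that in PT (median 1.25), above it in 9 of 9 mice for the sum and for each member except mt-Nd6, which was above in 7 of 9. Endo was above PT in 9 of 9 mice, at 1.02 to 1.90 times (median 1.12). Without the limit neither held in every mouse. AKI-CKD mouse 2 then had 8653 plain CPM in LOH against 8775 in PT. Endo lay below PT in Control mouse 2 (11125 against 11595), AKI-CKD mouse 2 (7792 against 8775) and AKI-CKD mouse 3 (5163 against 5881). The values that follow are again within the limit. By member, Endo was above PT in 9 of 9 mice for mt-Nd4 and mt-Nd5, in 8 for mt-Nd2, mt-Nd3 and mt-Nd6, in 6 for mt-Nd4l and in 4 for mt-Nd1. PT marker UMIs stood at 52.9% to 74.2% of the PT level in LOH cells and at 33.2% to 57.2% in Endo, and their part in these ratios was not tested. The balance of members differed as well: mt-Nd1 UMIs were 83.5% to 126% of mt-Nd4 UMIs in LOH (median 114%) and 74.2% to 103% in Endo (median 89.9%), higher in LOH in 9 of 9 mice. Endo was lowest among LOH, PT, DCT and Endo: the same ratio was 82.6% to 130% in PT (median 103%) and 81.5% to 133% in DCT (median 118%), each above Endo in 9 of 9 mice, while LOH was above PT in 5 of 9.

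**Figure D4:**
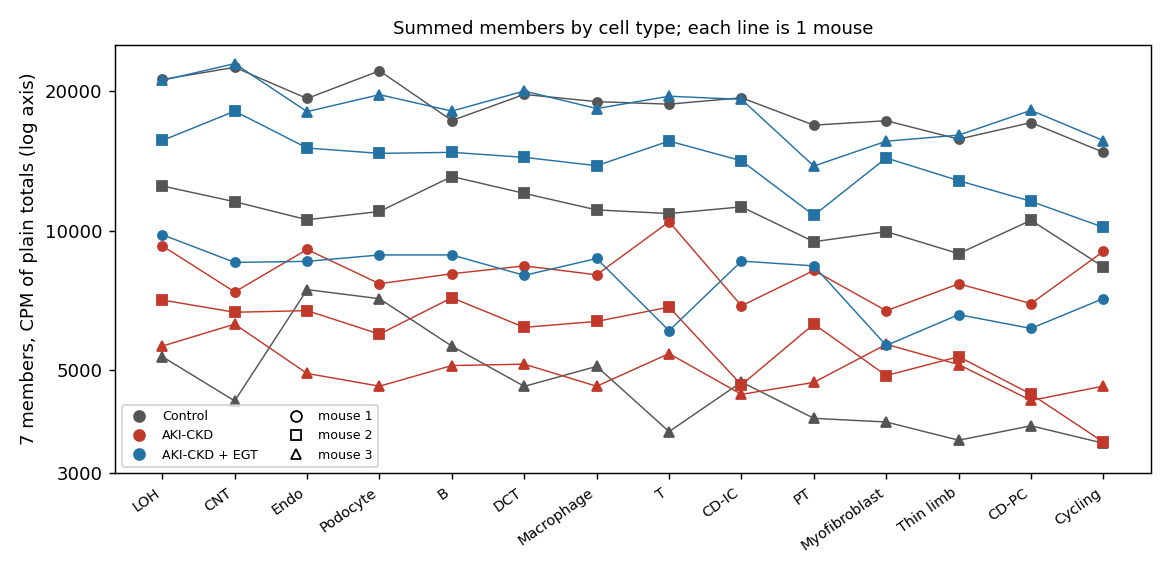
Summed level of the 7 members by cell type, in plain CPM on a log axis, with 1 line per mouse coloured by group. The lines keep broadly the same order over types but cross in places. Control mouse 3, lowest in PT at 3939, has 7466 in Endo, above AKI-CKD mouse 2 at 6726 and mouse 3 at 4923. The spread between mice exceeds that between types. The podocyte points rest on 16 to 223 cells per mouse.

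In AKI-CKD against Control, each member had a log2 fold change below 0 in every population tested, and 0 passed the test. Levels in the comparisons between groups are CPM after TMM scaling, which corrects the library totals for composition. mt-Nd4 in all kept cells was 4939, 3550.0 and 1607 CPM in Control mice 1 to 3 and 2386, 2065 and 1744 in AKI-CKD mice, a log2 difference of -0.70 (SE 0.34). mt-Nd1 was 5885.5, 3448 and 1326 in Control and 3061, 2104 and 2009 in AKI-CKD, a difference of -0.57 (SE 0.43). mt-Nd6 was 24.7, 16.8 and 7.57 in Control and 7.93, 12.0 and 8.21 in AKI-CKD, a difference of -0.80 (SE 0.34). In each of the 3, Control mouse 1 was highest and Control mouse 3 lay below all AKI-CKD mice, so the groups overlapped.

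Differences for the remaining members were smaller or as uncertain: -0.68 for mt-Nd2, -0.60 for mt-Nd5, -0.63 for mt-Nd4l and -0.16 for mt-Nd3. The size of these differences rested on the Control mice. Without Control mouse 1 the log2 difference was -0.38 for mt-Nd6, -0.32 for mt-Nd4, -0.37 for mt-Nd4l, -0.10 for mt-Nd2, -0.070 for mt-Nd5 and 0.0024 for mt-Nd1. Without Control mouse 3 it was -1.14 for mt-Nd6, -1.04 for mt-Nd4, -0.92 for mt-Nd4l and -0.96 for both mt-Nd5 and mt-Nd1. mt-Nd2 reached -1.09 without AKI-CKD mouse 1, and mt-Nd3 ran from -0.57 without Control mouse 3 to 0.16 without Control mouse 2. In all kept cells edgeR called 0 of 7 members against 0.0199% of all genes tested, with 1 member, mt-Nd6, at an unadjusted p under 0.05 beside 8.02% of all genes, and DESeq2 called 0. The edgeR adjusted p of mt-Nd6 was 0.609. The members' median log2 difference was -0.63 beside a median of all genes near 0. Sums over all kept cells mix cell types, so fewer cells of a type and less RNA per cell cannot be told apart there.

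The same direction held within types. The median over members was -0.60 in PT, -0.89 in LOH, -0.82 in DCT, -0.98 in CD-PC, -1.22 in CD-IC, -0.82 in Endo and -0.81 in macrophages. These sizes too rested on single Control mice. Without Control mouse 1 the median was -0.017 in PT, -0.27 in LOH, -0.24 in DCT, -0.33 in CD-PC, -0.55 in CD-IC, -0.27 in Endo and -0.27 in macrophages. Without Control mouse 3 it was -0.89 in PT, -1.26 in LOH, -1.24 in DCT, -1.40 in CD-PC, -1.58 in CD-IC, -1.11 in Endo and -1.18 in macrophages, and in PT it was -0.37 without AKI-CKD mouse 3. edgeR called 0 members in each, against 0.0447% of all genes in PT, 0.047% in LOH, 0.0% in DCT, 0.0212% in CD-PC, 0.269% in CD-IC, 0.0% in Endo and 0.0522% in macrophages, and DESeq2 called 0. At an unadjusted p under 0.05 the edgeR counts were 0 in PT, beside 11.4% of all genes, 5 in LOH (12.1%), 2 in DCT (8.23%), 1 in CD-PC (15.1%), 5 in CD-IC (1336 of 8910 genes), 4 in Endo (9.36%) and 2 in macrophages (8.62%). mt-Nd4l had too few counts to be tested in CD-PC, CD-IC, Endo and macrophages, which left 6 members there. The lowest adjusted p was that of mt-Nd4 in CD-IC, 0.0792, where it was 6265.5, 3894 and 1766 CPM in Control mice and 1982, 1590.4 and 1456 in AKI-CKD mice (log2 difference -1.25, which was -0.76 without Control mouse 1 and -1.61 without Control mouse 3). AKI-CKD mouse 1 lay above Control mouse 3 there. Without Control mouse 3, edgeR called 3 members lower in CD-IC beside 31 of 9254 genes. It called 1 without AKI-CKD + EGT mouse 1, beside 180 of 9287 genes, and 1 without AKI-CKD + EGT mouse 3, beside 103 of 9064 genes, so calls rose over all genes as well from 24 of 8910. The groups did not overlap for 1 member in LOH and 1 in Endo, beside 7.99% and 7.11% of all genes that were lower without overlap. In LOH it was mt-Nd6, at 34.1, 15.9 and 12.4 CPM in Control and 9.04, 10.6 and 8.58 in AKI-CKD (log2 difference -1.16, edgeR adjusted p = 0.246). Without the mitochondrial limit these LOH values overlapped, at 40.3, 17.6 and 12.1 against 10.3, 13.1 and 9.95, and the count of members in LOH at an unadjusted p under 0.05 was 2, beside 12.0% of all genes. The difference with the limit was -0.59 without Control mouse 1 and -1.42 without Control mouse 3. In Endo it was mt-Nd4, at 6526, 4035 and 2936 in Control and 2931, 2552 and 1827 in AKI-CKD (-0.88, which was -0.51 without Control mouse 1), where the lowest Control and the highest AKI-CKD mouse nearly met. For 0 members did the groups stay apart in the other populations, where 7.09% of all genes in all kept cells, 9.55% in PT, 6.35% in DCT, 11.1% in CD-PC, 8.93% in CD-IC and 7.33% in macrophages were lower without overlap. The PT markers summed to 76867 to 89579 plain CPM in DCT cells of Control mice and to 30817 to 66278 in those of AKI-CKD mice. They were lower without overlap in LOH and CD-IC too, while the groups overlapped in CD-PC, Endo and macrophages. The part of the PT markers in the members' differences was not tested.

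The comparison of AKI-CKD + EGT with AKI-CKD shares the AKI-CKD mice with the previous one. Here members at both ends of the abundance range had differences well above 0, while mt-Nd2 and mt-Nd3 stood near 0. mt-Nd4 in all kept cells was 2386, 2065 and 1744 CPM in the AKI-CKD mice and 3148, 3721 and 4506 in the AKI-CKD + EGT mice, a log2 difference of 0.88 (SE 0.34). mt-Nd6 was 7.93, 12.0 and 8.21 against 22.5, 24.7 and 24.0, a difference of 1.34 (SE 0.34) or 2.53-fold. mt-Nd4l was 3.65, 2.75 and 2.06 against 4.72, 5.48 and 6.14, a difference of 0.95 (SE 0.31). In these 3 members each AKI-CKD + EGT mouse lay above each AKI-CKD mouse, as also for mt-Nd5, at 838, 804 and 709 against 962, 1332 and 1794 (0.80). The 4 non-overlapping members stand beside 8.54% of all genes that were higher without overlap.

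mt-Nd1 was 3061, 2104 and 2009 CPM in AKI-CKD and 2969.5, 4241 and 4819 in the AKI-CKD + EGT group, a log2 difference of 0.75 with AKI-CKD + EGT mouse 1 among the AKI-CKD mice. mt-Nd2 was 2002, 1089 and 921 against 986, 1476 and 1922, a difference of 0.13 (SE 0.47), and mt-Nd3 was 292, 189 and 176 against 160.4, 239.6 and 296, a difference of 0.09 (SE 0.43). Both groups spanned the same range for these 2 members. edgeR called 0 of 7 members, against 0.00496% of all genes tested, with 3 at an unadjusted p under 0.05 beside 12.7% of all genes. These were mt-Nd6, mt-Nd4l and mt-Nd4, with edgeR adjusted p of 0.318, 0.318 and 0.354. DESeq2 called mt-Nd6 alone among the members (1.33, adjusted p = 0.0173), beside 217 of 32233 genes. The median over members was 0.80.

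In LOH cells mt-Nd6 rose. It was 9.04, 10.6 and 8.58 CPM in the AKI-CKD mice and 28.3, 28.4 and 37.8 in the AKI-CKD + EGT mice, a log2 difference of 1.76 (SE 0.34) or 3.38-fold, with edgeR adjusted p = 0.0437. Each AKI-CKD + EGT mouse lay well above each AKI-CKD mouse, and mice 1 and 2 lay inside the Control range of 12.4 to 34.1 while mouse 3 lay above it. mt-Nd6 was the 1 member called of 7, against 0.366% of all genes, and DESeq2 called it too (1.74, adjusted p = 0.00389), beside 103 of 23542 genes. The call stood near its threshold: with no mitochondrial limit the difference was 1.84 and the edgeR adjusted p 0.0531, and the adjusted p was 0.0526 without Control mouse 2, 0.123, 0.210 and 0.116 without AKI-CKD mouse 1, 2 or 3, and 0.0809 and 0.258 without AKI-CKD + EGT mouse 2 or 3, while the difference stayed between 1.58 and 1.86. mt-Nd6 rested on 11 to 191 UMIs per mouse in LOH.

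Other members in LOH had differences above 0 that were not called. mt-Nd1 was 3123, 2439 and 2069 CPM in AKI-CKD and 3519, 6269 and 8138 in the AKI-CKD + EGT group (1.23, SE 0.41, edgeR adjusted p = 0.179), and mt-Nd4 was 2696, 2433 and 1820.3 against 3699, 5053.5 and 6904 (1.17, SE 0.32, edgeR adjusted p = 0.123). In both, AKI-CKD + EGT mouse 3 was the highest and no mouse overlapped. In all, 5 members did not overlap in LOH, against 8.26% of all genes, and 5 had an unadjusted p under 0.05, against 14.3%. Without the mitochondrial limit 3 members did not overlap in LOH, against 8.59%, since mt-Nd4l and mt-Nd5 then overlapped, and 5 had an unadjusted p under 0.05, against 15.2%. mt-Nd2 and mt-Nd3 differed by 0.47 and 0.41 with overlapping groups. Without AKI-CKD + EGT mouse 3 these were 0.077 and 0.095, and mt-Nd5 was 0.69 in place of 1.08, while mt-Nd2 was 0.87 without AKI-CKD mouse 1 and mt-Nd3 was 0.64 without AKI-CKD + EGT mouse 1. The 1834 LOH cells of AKI-CKD + EGT mouse 3 stood beside 428 to 1127 in the other mice. The PT markers summed to 90325 to 105170 plain CPM in LOH cells of Control mice, to 43573 to 79629 in those of AKI-CKD mice and to 63462 to 85072 in those of AKI-CKD + EGT mice, and their part in these differences was not tested.

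CD-IC cells, which secrete acid or base in the collecting duct, had the most members called. mt-Nd4 was 1982, 1590.4 and 1456 CPM in the AKI-CKD mice and 3397, 4873 and 6587 in the AKI-CKD + EGT mice, a log2 difference of 1.56 (SE 0.32, edgeR adjusted p = 0.0125). mt-Nd1 was 2160.5, 1597 and 1633 against 2958, 5489 and 7597, a difference of 1.57 (SE 0.41, edgeR adjusted p = 0.0328). mt-Nd5 was 728, 607 and 605 against 1026.5, 1731 and 2662, a difference of 1.48 (SE 0.37, edgeR adjusted p = 0.0263). The groups did not overlap in these 3 members, against 10.9% of all genes. mt-Nd6 was 3.51, 6.89 and 15.2 against 14.6, 22.6 and 36.9, a difference of 1.78 (SE 0.46, edgeR adjusted p = 0.0317), with AKI-CKD mouse 3 just above AKI-CKD + EGT mouse 1.

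The count of 4 of 6 in CD-IC stood against 5.82% of all genes tested, 519 in number, so many genes were called in this population. mt-Nd2 and mt-Nd3 were not among them, with differences of 0.80 and 0.66 (edgeR adjusted p = 0.289 and 0.341). Without AKI-CKD + EGT mouse 3 these were 0.39 and 0.29, while mt-Nd2 was 1.26 without AKI-CKD mouse 1 and mt-Nd3 was 0.95 without AKI-CKD + EGT mouse 1. DESeq2 called only mt-Nd4 among the members (1.56, adjusted p = 0.0197), beside 341 of 21063 genes. Without the mitochondrial limit the same 4 members were called, beside 6.5% of all genes, at 1.91 for mt-Nd1, 1.83 for mt-Nd4, 1.79 for mt-Nd5 and 2.03 for mt-Nd6. The count was 1, 0 and 2 without AKI-CKD mouse 1, 2 or 3, beside 114 of 9056, 46 of 9267 and 506 of 9312 genes, and 1 and 0 without AKI-CKD + EGT mouse 2 or 3, beside 195 of 9080 and 51 of 9064 genes. CD-IC cells numbered 193 to 250 in the AKI-CKD mice and 199, 543 and 830 in the AKI-CKD + EGT mice. The PT markers summed to 94040 to 101110 plain CPM in these cells of Control mice, to 36290 to 78119 for AKI-CKD mice and to 60201 to 86177 for AKI-CKD + EGT mice, and their part was not tested.

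In the remaining populations edgeR called 0 members, against 0.0% of all genes in PT, DCT, CD-PC and macrophages and 0.00963% in Endo. At an unadjusted p under 0.05 the count was 3 in PT, beside 15.4% of all genes, 5 in DCT (11.2%), and 4 each in CD-PC (14.0%), Endo (10.1%) and macrophages (9.62%). DESeq2 called mt-Nd6 in PT (1.22, adjusted p = 0.0222), mt-Nd4 in Endo (1.02, adjusted p = 0.0269) and in macrophages (1.17, adjusted p = 0.0236), and 0 in DCT and CD-PC. Over all genes it called 428 of 30215 in PT, 85 of 23104 in Endo, 20 of 21586 in macrophages, 49 of 24440 in DCT and 20 of 22644 in CD-PC. mt-Nd6 in PT was 7.95, 12.7 and 7.82 CPM in AKI-CKD and 22.4, 23.5 and 20.8 in the AKI-CKD + EGT group (1.23). In Endo it was 6.67, 12.9 and 9.57 against 24.3, 36.8 and 32.5 (1.65), and in DCT 6.65, 15.3 and 4.56 against 25.3, 34.8 and 35.7 (1.79, SE 0.43). In all 3 the AKI-CKD + EGT mice lay above the AKI-CKD mice. Members without overlap numbered 4 in PT, 3 in DCT, 2 in CD-PC, 3 in Endo and 3 in macrophages, against 10.4%, 8.25%, 9.32%, 7.79% and 7.06% of all genes. The median over members was 0.66 in PT, 1.09 in DCT, 1.31 in CD-PC (0.78 without AKI-CKD + EGT mouse 3), 1.03 in Endo and 1.105 in macrophages. The one difference below 0 was that of mt-Nd3 in PT, -0.0052, which was 0.24 under plain library totals, where the median of all PT genes was 0.22.

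**Figure D5:**
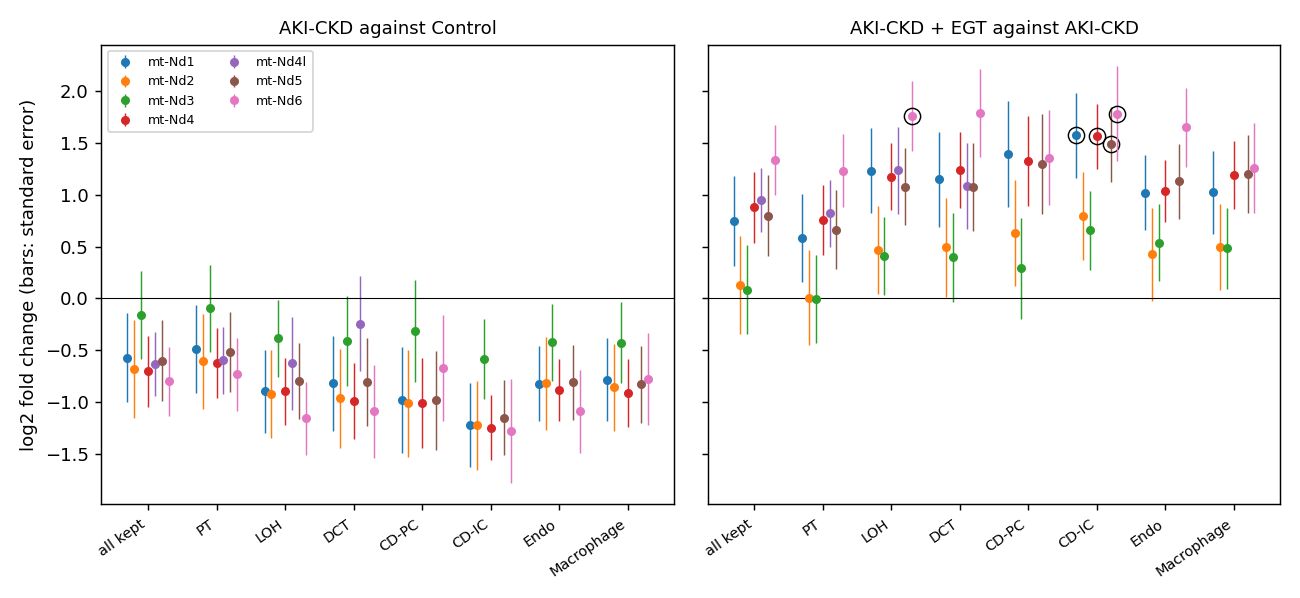
Log2 fold change of each member in all kept cells and 7 cell types, with the edgeR standard error as bars, for AKI-CKD against Control and for AKI-CKD + EGT against AKI-CKD, with calls at adjusted p under 0.05 circled. Every point lies below 0 in the first comparison, and in the second all but mt-Nd3 in PT lie above 0, with calls for mt-Nd6 in LOH and for mt-Nd1, mt-Nd4, mt-Nd5 and mt-Nd6 in CD-IC.

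The 15% limit removed a part of each member that depended on the mouse. Without it, levels in all cells were higher by a median of 28.8% for mt-Nd1, 22.4% for mt-Nd2, 22.3% for mt-Nd3, 22.9% for mt-Nd4, 30.8% for mt-Nd4l, 25.2% for mt-Nd5 and 17.4% for mt-Nd6. Control mouse 3 changed least, by 10.1% for mt-Nd1 and 6.28% for mt-Nd6, and AKI-CKD + EGT mouse 3 most, by 51.8% and 36.5%. The summed members then stood at 23350, 11847 and 4558 plain CPM in Control mice, 10195, 8483 and 5867 in the AKI-CKD mice, and 10495, 15121 and 23352 in the AKI-CKD + EGT mice. The order of mice stayed nearly the same, with Control mouse 1 and AKI-CKD + EGT mouse 3 now level. With no limit edgeR called 0 of 7 members in all cells in either comparison, against 0.0195% and 0.00487% of all genes, with 0 and 3 members at an unadjusted p under 0.05 (7.49% and 12.9% of all genes), and the medians were -0.61 and 0.91.

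Cells over the limit differed in balance, a comparison added after values were seen. mt-Nd1 was a median of 40.1% of the members' UMIs in them and 35.6% in kept cells, higher in 9 of 9 mice by a mean of 4.79 points ± 1.21 (SD, n = 9). mt-Nd4 was lower by 2.21 points, mt-Nd2 by 1.97 and mt-Nd3 by 0.374, each in 9 of 9 mice. mt-Nd6 was also lower in 9 of 9, at a median of 0.120% against 0.173%. mt-Nd5 was lower in 7 mice and higher in 2, with a mean difference of -0.18 points, and mt-Nd4l was lower in 4 and higher in 5, with a mean difference of 0.0024 points. The shares of the 7 members sum to 100%, so a higher share of mt-Nd1 lowers the others, and the cells were split on a share of UMIs that includes the members. These values are therefore a description, and the p-values computed for them are not used.

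The other genes of the pathway were taken as a mitochondrial and a nuclear group, and the difference between these groups was not tested. The 6 other mitochondrial protein genes, which encode cytochrome b and parts of cytochrome oxidase and ATP synthase, had a median log2 difference of -0.49 in AKI-CKD against Control, with 6 of 6 below 0, and of 0.56 in AKI-CKD + EGT against AKI-CKD, with 6 of 6 above 0. edgeR called 0 in either, with 0 and 1 at an unadjusted p under 0.05, and DESeq2 called 0. mt-Co1, the catalytic subunit of cytochrome oxidase, was 12410, 7635.5 and 3355 CPM in Control mice, 5560, 5555 and 4674 in the AKI-CKD mice, and 7578, 8523 and 12089 in the AKI-CKD + EGT mice. As for the sum of the members, Control mice were both highest and lowest.

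In both comparisons, which share the AKI-CKD mice, the median of the 37 nuclear genes of complex I had the opposite sign to that of the members. In AKI-CKD against Control 37 of 37 lay above 0 with a median of 0.25, edgeR and DESeq2 called 0, and 3 had an unadjusted p under 0.05 in edgeR, beside 8.02% of all genes. In AKI-CKD + EGT against AKI-CKD 36 of 37 lay below 0 with a median of -0.41, edgeR called 0, 25 had an unadjusted p under 0.05, beside 12.7% of all genes, and DESeq2 called 4, beside 217 of 32233 genes. The members' medians in the same fits were -0.63 and 0.80. Ndufa3, an accessory subunit, was 624, 992 and 887 CPM in Control, 1126, 1247 and 1246 in AKI-CKD and 825, 849 and 739.95 in the AKI-CKD + EGT group (0.53 for AKI-CKD against Control). Ndufa2, another accessory subunit, was 1306, 1505 and 1520.3 in AKI-CKD and 1057, 909.7 and 831 in the AKI-CKD + EGT group (-0.63), and Ndufs6 was 671, 757 and 825 against 548, 534 and 478 (-0.53). In these 3 genes the AKI-CKD mice lay above the mice of both other groups. The choice of these genes by lowest unadjusted p favours such a separation, and no share of all genes stands beside it. Neither they nor Ndufa11 (0.35) passed the edgeR test, with adjusted p from 0.318 to 0.616.

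Plain library totals in place of TMM scaling moved the median of all genes in all kept cells to 0.22 for AKI-CKD + EGT against AKI-CKD, and relative to that median the members stood at 0.83 and the nuclear subunits at -0.41. The nuclear group thus kept its direction, with 33 of 37 below 0. In CD-IC cells edgeR called 3 of the 6 other mitochondrial genes higher and 3 of the 37 nuclear complex I genes lower when AKI-CKD + EGT was set against AKI-CKD, beside 5.82% of all genes, so the nuclear count was near the background. The median of the nuclear group was -0.29 there, -0.42 in PT, -0.35 in LOH, -0.43 in DCT, -0.26 in CD-PC and -0.19 in Endo.

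Genes that build complex I or handle mitochondrial RNA lay mostly below 0 in AKI-CKD + EGT against AKI-CKD, though 0 of them were called. Of 14 assembly factors, 8 lay above 0 in AKI-CKD against Control (median 0.01) and 14 below 0 in AKI-CKD + EGT against AKI-CKD (median -0.23). Of 25 tested genes of mitochondrial transcription and RNA stability, 15 lay above 0 in the first (median 0.06) and 22 below 0 in the second (median -0.17). Under plain totals 7 of 14 and 10 of 25 lay below 0 in the second, where the median of all genes was 0.22, and relative to that median the lists stood at -0.22 and -0.16, beside -0.22 and -0.16 relative to the median of all genes with TMM scaling. edgeR and DESeq2 called 0 in either list, with 1 and 2 assembly factors and 0 and 2 RNA genes at an unadjusted p under 0.05 in edgeR, beside 8.02% and 12.7% of all genes. The named genes had log2 differences of 0.32 for Ndufaf3, 0.23 for Ndufaf5, 0.26 for Slirp and 0.28 for Mterf2 in AKI-CKD against Control. In AKI-CKD + EGT against AKI-CKD they were -0.49 for Ndufaf5, -0.44 for Ndufaf8, -0.42 for Slirp, which binds mitochondrial messages together with Lrpprc, and -0.29 for Tbrg4. Ndufaf5, an assembly factor named for its low unadjusted p, was 15.7, 17.0 and 15.6 CPM in AKI-CKD and 12.3, 9.80 and 12.4 in the AKI-CKD + EGT group.

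Of 6034 genes compared over the 9 mice, genes whose log2 level followed the members’ mean closely were Chka (r = 0.92), Anks1 (0.92), Lrmda (0.91) and Trio (0.91). Over the 14 cell types, podocytes included, the mean held 6 of the 7 members. Each type was summed over mice and so weighted by their cells. Among 6854 genes, those that followed this mean closely were Camk1d (0.83), Ak1 (0.81), Lars2 (0.79), Casp6 (0.77) and Il31ra (0.76). Points share libraries and free RNA, and r is given as a description.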

How the data were processed

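Kidneys of 9 mice were dissociated and captured in droplets with poly(dT) primers. The authors deposited, for each mouse, raw UMI counts in a matrix of genes by barcodes; the headers name PISA 1.0 and the labels build GRCm39, and the aligner and annotation are not given in the sources used here. Libraries held 70106161 to 101525691 UMIs, and depth sets the counting error. Cells needed 1000 UMIs, 500 genes and at most 15% mitochondrial UMIs. Clusters came from 2000 variable nuclear genes, 30 principal components, 20 neighbours, Harmony and resolution 1.1 (igraph 0.11.9, Python 3.11.15), and took a name from at least 3 markers at 2-fold. The naming rules were settled after clusters were seen, and a haemoglobin-led cluster of 5168 cells stayed unnamed. No doublet caller was run. Cells over the limit were given the commonest type among their 15 nearest kept neighbours.

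Counts were summed per mouse and type and tested with edgeR 4.0.16 (R 4.3.3; quasi-likelihood F test, TMM, filterByExpr, 9 mice in one fit), with Benjamini-Hochberg adjustment over all genes tested and calls at adjusted p under 0.05. DESeq2 1.42.0 was an alternative. The script was tested on simulated data. All 7 members are named throughout; from the lists of nuclear complex I, assembly and mitochondrial RNA genes the 2 with the lowest unadjusted p per comparison are named, and 5 genes by likeness over mice and over types with mean log2 CPM of at least 4, of which 1 is not reported here. Members and lists were chosen with earlier results of these data known. Sequences, lengths and strands came from GENCODE M21, which is of another build, so no coordinates are given.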

Additional observations from a re-analysis of the deposited data

How the results depend on the processing

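The number of members called for AKI-CKD + EGT against AKI-CKD depended on the tool and the low-count filter. DESeq2 called 1 member in all kept cells, PT, CD-IC, Endo and macrophages, where edgeR called 0, 0, 4, 0 and 0. With no low-count filter edgeR called 1 in PT, 4 each in LOH, DCT, CD-PC, Endo and macrophages and 7 in CD-IC, and for AKI-CKD against Control 5 in LOH and DCT and 4 in CD-PC, CD-IC, Endo and macrophages. Calls then rose over all genes too, and for AKI-CKD + EGT against AKI-CKD they numbered 237 of 30215 in PT, 417 of 23542 in LOH, 296 of 24440 in DCT, 394 of 22644 in CD-PC, 893 of 21063 in CD-IC, 215 of 23104 in Endo and 204 of 21586 in macrophages, and for AKI-CKD against Control 253 in LOH, 140 in DCT, 265 in CD-PC, 379 in CD-IC, 130 in Endo and 192 in macrophages of the same numbers of genes. In LOH, where the count was 1, it was 0 with the replicate number as a block, 3 with a fit of the 6 mice compared, 0 with no mitochondrial limit and 0 to 2 when 1 mouse was left out. In CD-IC for AKI-CKD + EGT against AKI-CKD it was 3 with the replicate number as a block, 2 with clusters made without Harmony and 0 to 4 when 1 mouse was left out, and for AKI-CKD against Control 1 with 6 mice and 0 to 3 when 1 mouse was left out. The correlations of same-numbered mice ran from -0.485 to 0.449. No values for differently numbered mice stand beside these, so whether the replicate numbers pair the mice was not tested. Over all genes in all kept cells, edgeR called 4 and 1 genes in the 2 comparisons and DESeq2 112 and 217. Calls over all genes in the LOH and CD-IC fits with the block, with 6 mice and without Harmony are not given here. The counts of members in those fits therefore have no background beside them. Some directions turned. Leaving out 1 mouse gave, for AKI-CKD against Control in all kept cells, -0.96 to 0.0024 for mt-Nd1 and -0.57 to 0.16 for mt-Nd3, in PT -0.88 to 0.090 for mt-Nd1, -0.50 to 0.22 for mt-Nd3 and -0.88 to 0.021 for mt-Nd5, in DCT -0.53 to 0.12 for mt-Nd4l and in CD-PC -0.76 to 0.038 for mt-Nd3. For AKI-CKD + EGT against AKI-CKD it gave -0.10 to 0.53 for mt-Nd2 and -0.11 to 0.34 for mt-Nd3 in all kept cells, -0.23 to 0.40 and -0.17 to 0.25 in PT, and -0.22 to 0.63 for mt-Nd3 in CD-PC. The mt-Nd6 share difference between AKI-CKD and Control ran from -0.041 to 0.0095 points in all kept cells and from -0.042 to 0.0063 in PT. At a 10% mitochondrial limit mt-Nd3 was -0.0060 in all kept cells and mt-Nd2 -0.032 in PT for AKI-CKD + EGT against AKI-CKD, and mt-Nd4l 0.14 in DCT for AKI-CKD against Control. In PT, mt-Nd2 was -0.0051 in DESeq2 and -0.036 with no filter, and mt-Nd3 was 0.00033 with library sizes that leave out mitochondrial genes, 0.24 with plain totals (where the median of all genes was 0.22), 0.086 with the block, 0.010 with 6 mice, 0.096 with no limit, 0.043 at a 20% limit, 0.044 without Harmony and 0.0045 without the 6% of cells with most UMIs. The cause was not tested. Of the other values, 1934 member values kept their direction and side of the threshold, 62 member values gained a call and 31 lost one. Among summary values 469 were rated the same and 39 moved, and a count of calls that changed slightly was rated the same. The clusters without Harmony held LOH cells in a mixed cluster of 16608 cells. Counts per mouse limit mt-Nd4l and mt-Nd6 in the smaller types.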
